A study of Saccharomyces cerevisiae with 12 samples.

Results

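The 9 pseudouridine synthase genes PUS1, PUS2, DEG1 (also called PUS3), PUS4, PUS5, PUS6, PUS7, RIB2 (also called PUS8) and PUS9 were read from RNA-seq of budding yeast, where they are 9 of 6612 quantified features. They were picked by their gene identifiers, and the rule uses no measured value. Cells of the wild-type strain BY4741 (WT, 3 libraries) and of the quadruple mutant dus1Δ dus2Δ dus3Δ dus4Δ (DUS KO, 3 libraries), which lacks the dihydrouridine synthases, were harvested in mid-log phase, and poly(A)+ RNA was sequenced without NaBH4. The mutant came from a cross of a pair of double mutants followed by tetrad dissection, so the 4 deletions and other differences carried through the cross cannot be told apart. The labels do not say that the replicates were separate cultures, so p-values measure the spread between these libraries only.

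Pseudouridine is an isomer of uridine in which the base is joined to the ribose through carbon rather than nitrogen. It is made in place in the finished RNA chain, either by stand-alone synthases that find their own sites or by the H/ACA particle, in which a guide RNA directs the synthase Cbf5. Dihydrouridine, the product of the enzymes missing in DUS KO, is another common change made to uridine in tRNA. The stand-alone synthases fall into families named after bacterial enzymes, and all families share a catalytic aspartate.

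The RefSeq annotation (R64, the sacCer3 assembly) gives each enzyme its sites. In the TruA family, Pus1 modifies tRNA at positions 26 to 28, 34 to 36, 65 and 67, the U2 snRNA and some mRNAs, Pus2 modifies positions 27 and 28 of mitochondrial tRNA and its loss affects some nuclear-encoded mRNAs, and Deg1 modifies position 38 or 39 of tRNA and some mRNAs. Pus4, of the TruB family, makes pseudouridine 55 in cytoplasmic and mitochondrial tRNA and also acts on some mRNAs. Pus7, of the TruD family, has several sites, among them position 13 of cytoplasmic tRNA. It also acts on the U2 snRNA, on the small ribosomal RNA of the large subunit and on some mRNAs, and moves from nucleus to cytoplasm in heat shock. In the RluA family, Rib2 modifies position 32 of cytoplasmic tRNA and carries a deaminase of riboflavin synthesis, Pus9 modifies position 32 of mitochondrial tRNA, Pus6 modifies position 31 of tRNA in both compartments, and Pus5 has its single known site in mitochondrial ribosomal RNA. By its known site, Pus5 is thus a synthase of rRNA, and the annotation names no tRNA or mRNA site for it.

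The coding strand around the codon of the catalytic aspartate is shown for the 2 families with several members, because reads can be divided between genes where their sequences are the same. Each stretch holds 30 bases read 5′ to 3′, with the aspartate codon in capitals. The codon was found by searching each reading frame for the short motif of its family, and for PUS6 it fell on residue 168, the aspartate that the annotation names as needed for activity.
PUS1 (chromosome XVI, 152733 to 152762, minus strand): gctgcaagaactGATaagggtgtccatgct
PUS2 (chromosome VII, 383807 to 383836, plus strand): gcggcaagaacaGACaagggtgtacacgct
DEG1 (chromosome VI, 147569 to 147598, plus strand): tgtggcagaacaGACaagggagttagcgcc
RIB2 (chromosome XV, 203824 to 203853, minus strand): tgtaatagactaGACaagccaactagtgga
PUS9 (chromosome IV, 388173 to 388202, minus strand): tgtaataggttaGATaggcttacaagtgga
PUS6 (chromosome VII, 835385 to 835414, minus strand): tgttatcggttaGACaagatcacatcaggc
PUS5 (chromosome XII, 495031 to 495060, minus strand): gtacataggttaGACcattgtgttacgggg

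Even around the catalytic aspartate, which all families share, the genes differed. PUS1 and PUS2, which the annotation gives as a pair left by the whole genome duplication, shared 25 of the 30 bases, and RIB2 and PUS9, another such pair, shared 23. Over whole coding sequences the longest run of bases shared by any of the 36 pairs of members was 17 nt, the run acgagtattgtaaagtg of RIB2 and PUS9, and RIB2 and PUS6 shared another run of 17 nt. The deposited effective lengths are 59 nt shorter than the gene lengths, a fragment size well above these runs. All 9 coding sequences lie in 1 exon. PUS2 and PUS6 are both on chromosome VII and RIB2 and PUS7 both on chromosome XV, and the others are each on a chromosome of their own.

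Estimated counts, the reads that the authors' quantification gave to each feature, summed to between 4336794 and 5652837 in the WT libraries and to 5500084, 2856581 and 656162 in DUS KO replicates 1, 2 and 3. The members together held 761 to 1065 counts in every library except DUS KO replicates 2 and 3, where they held 543 and 134. WT replicate 2 was the deepest library and yet had 811 features at 0, against 486 and 274 in WT replicates 1 and 3. MET17, a gene deleted in BY4741, had 0, 92 and 155 counts in WT replicates 1, 2 and 3, while the DUS KO replicates held 618, 290 and 37. WT replicates 2 and 3 therefore go against the strain label at this gene, and the log2 fold changes were also computed with WT replicate 1 as the only WT library. LEU2 and URA3, also deleted in BY4741, were at 0 in all 6 libraries, and LYS2, which BY4741 carries, had 86 to 330 counts in WT but at most 2 in DUS KO, so the strains differ at genes other than the DUS genes. HIS3, of which BY4741 lacks a part only, had counts in all 6. DUS1 and DUS4 were at 0 in all DUS KO libraries, and DUS2 was at 0 in replicates 1 and 2. DUS KO replicate 3 had 3 counts of DUS2 (1.19 TPM, against a WT mean of 7.24), which goes against its label. DUS3 also goes against the genotype: it stood at 1.82, 2.43 and 1.45 TPM in DUS KO replicates 1, 2 and 3, against 3.65, 1.92 and 3.39 for WT, so the strains overlapped, and its estimated counts are not whole in 5 of the 6 libraries.

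The comparison of DUS KO with WT asked whether the mRNAs for the pseudouridine synthases change when the dihydrouridine synthases are missing. None of the 9 members passed the test. The test was edgeR's quasi-likelihood test on the whole table with Benjamini-Hochberg adjustment, and at an adjusted p under 0.05 it called 0 of 9 members, against 5 of the 5884 features tested (0.085%). All 9 members passed the filter on low counts. At an unadjusted p under 0.05 there were 2 members, PUS1 and PUS4, both lower in DUS KO. Of all features, 8.26% reached that level in either direction, 4.93% as lower and 3.33% as higher values. No member reached it with total-count scaling (547 of 5884 features did) or without DUS KO replicate 1 (286 of 5965). Without WT replicate 1, 3 members did (PUS1, RIB2 and DEG1), as did 567 of 5980 features. Without WT replicate 3, PUS1 and PUS5 did, as did 688 of 5981 features. Without DUS KO replicate 2, PUS2 alone did, as did 319 of 5977 features. PUS1 and PUS4 were the only members whose DUS KO libraries did not overlap the WT libraries, which 15.5% of all features also showed and 7.68% showed as lower values. DESeq2, which gave an adjusted p to 3 members only (PUS1, PUS7 and RIB2), called 0 of these (1.96% of features with an adjusted p), with PUS1 alone at an unadjusted p under 0.05 (7.52%), and limma-voom called 0 members and 0 features, with PUS1 alone at that level (10.2%). The median log2 fold change of the members was -0.48, beside -0.02 over all features, with 5 members below 0 and 4 above. On log2(TPM + 1) it was 0.067, beside 0.22 over all features, with 4 members below 0 and 5 above, where both the unit and the test differ. In that limma fit RIB2 alone reached an unadjusted p under 0.05, as did 774 of 5884 features. All count scalings in edgeR kept 5 below and 4 above.

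**Figure D1:**
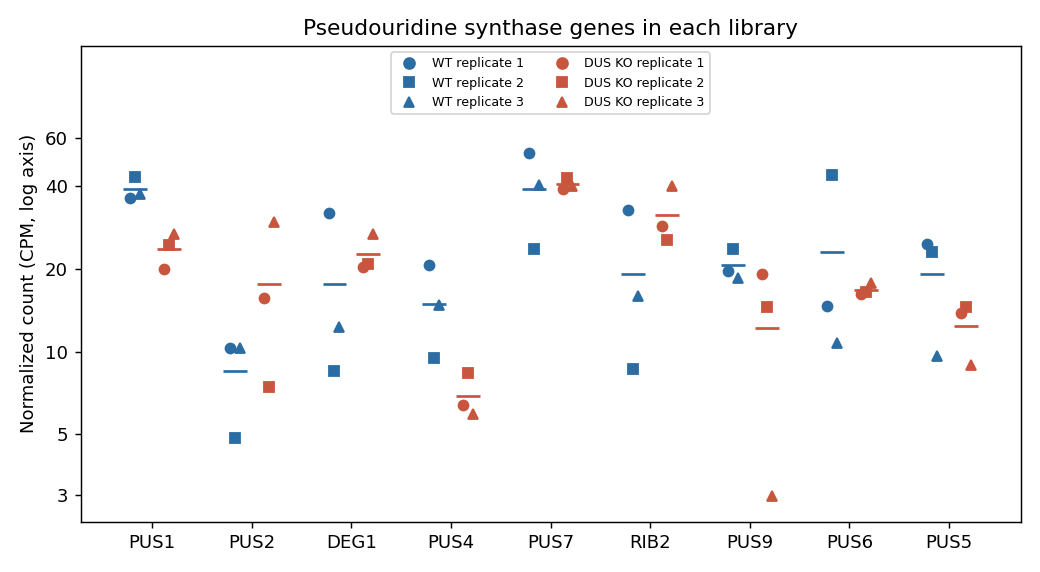
Normalized counts (CPM, log axis) of the 9 synthase genes in each library, WT in blue and DUS KO in red, with the replicate given by the marker and the strain mean by a line. PUS1 and PUS4 have all red points below all blue points, while PUS9 reaches down to 2.97 in DUS KO replicate 3.

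PUS1 (YPL212C, chromosome XVI, 151515 to 153149, minus strand) codes for a synthase with many sites in tRNA that also acts on mRNA. It had 36.2, 43.2 and 37.7 normalized counts (CPM, the counts relative to library size after edgeR's TMM scaling) in WT replicates 1, 2 and 3, against 20.03, 24.5 and 26.7 for the same replicates of DUS KO. The groups did not overlap, and the WT libraries lay within 1.19-fold of each other, the closest of any member. WT averaged 39.0 ± 3.67 (SD, n = 3) and the mutant 23.7 ± 3.41 (SD, n = 3), which gave -0.74 as the log2 fold change (standard error 0.29, 95% interval -1.37 to -0.12). The adjusted p in edgeR's test was 0.523, so PUS1 did not pass. The value stayed negative in all 18 alternatives, from -0.83 with limma-voom to -0.35 on log2(TPM + 1), and lay between -0.81 and -0.62 when single libraries were left out. With WT replicate 1 as the only WT library it was -0.65.

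PUS4 (YNL292W, chromosome XIV, 82806 to 84017, plus strand) makes the pseudouridine of the T loop, which is found in nearly every elongator tRNA. It had 20.6, 9.48 and 14.8 CPM in WT replicates 1, 2 and 3, against 6.40, 8.37 and 5.94 for DUS KO. The highest DUS KO library and the lowest WT library lay close together, so that the gap between the strains was narrow. WT averaged 14.97 ± 5.57 (SD, n = 3) and the mutant 6.90 ± 1.29 (SD, n = 3). At -1.09 (standard error 0.48, 95% interval -2.13 to -0.04), the log2 fold change was the lowest of the 9 members. Its adjusted p in edgeR's test was 0.585. DUS KO replicate 3 gave 4 counts for PUS4, with an exact 95% interval of 1.62 to 15.2 CPM that reaches into the WT values (this and other intervals on single libraries cover counting error only). The value was negative in all 17 alternatives that gave it and -1.54 with WT replicate 1 as the only WT library.

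PUS2 (YGL063W, chromosome VII, 383654 to 384766, plus strand), the mitochondrial relative of PUS1, had the highest log2 fold change of the members but shared its reads with another feature. It had 10.3, 4.84 and 10.3 CPM in WT replicates 1, 2 and 3, against 15.7, 7.41 and 29.7 for DUS KO, so the groups overlapped. Its estimate of log2 fold change was 0.96 (standard error 0.56, 95% interval -0.25 to 2.16, adjusted p = 0.690 in edgeR's test), and it was 0.46 without DUS KO replicate 3 and 0.62 without WT replicate 2. PUS2 was the only member with estimated counts that are not whole, in 3 of the 6 libraries. They add up to whole numbers, within 0.02 in every library, with those of exactly 1 other feature, YGL063C-A, a name that places it on the opposite strand. This feature is 150 nt long and is not in the annotation used here. The minus strand of PUS2 and 600 nt on each side holds exactly 1 reading frame of that length from start to stop codon, at chromosome VII, 384502 to 384651, inside PUS2. Its first 30 bases, with the start codon in capitals, show the stretch that both features would share if YGL063C-A is this frame.
Minus strand of PUS2: ATGcgctcaagagtgatatcgtccgggcgg

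Adapters were joined to the RNA and cDNA ends in a way that keeps strand, but whether the quantification used it is not given in the methods, so reads of PUS2 and of an antisense RNA cannot be told apart where both features lie. The division differed most in WT replicate 2, where YGL063C-A took 28.9 counts and PUS2 24.1, whereas it took 4.13 in WT replicate 1, 1.97 in DUS KO replicate 1 and 0 in the other libraries. Together both features had 49, 53 and 46 counts in the WT replicates, against 95, 23 and 20 for DUS KO. In WT the normalized sum was nearly level (10.7 ± 0.455 CPM, SD, n = 3), and in DUS KO it averaged 17.7 ± 11.2 CPM (SD, n = 3), with libraries on both sides of WT. The summed features, an alternative chosen after the data were seen, gave 0.62 as the log2 fold change (standard error 0.50, adjusted p = 0.803 in edgeR's test).

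**Figure D2:**
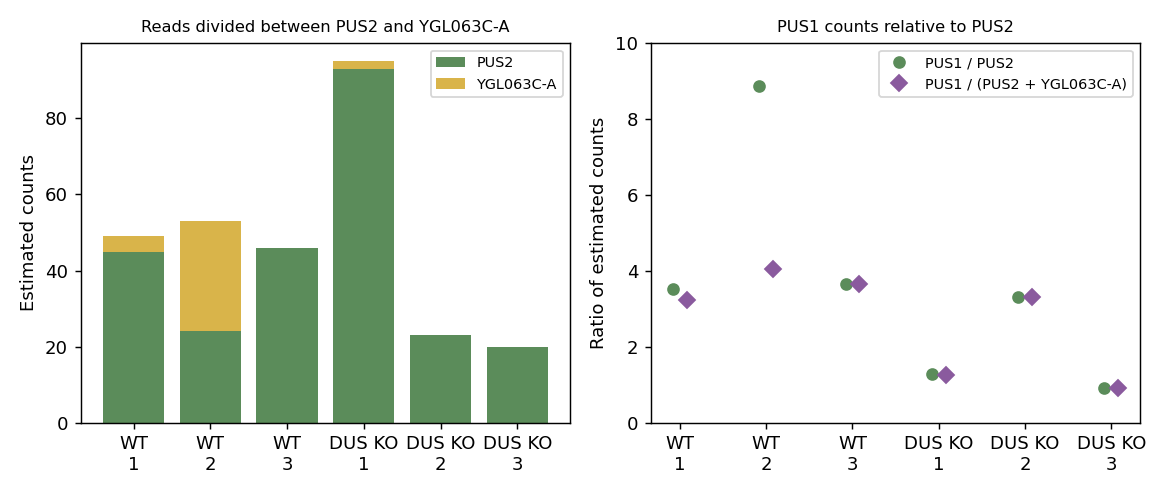
Left, estimated counts of PUS2 (green) and YGL063C-A (yellow) stacked in each library. Right, the ratio of PUS1 counts to PUS2 counts (circles) and to both features together (diamonds), which for WT replicate 2 drops from 8.89 to 4.04.

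The ratio of PUS1 to PUS2 counts does not depend on how libraries are scaled. It was 3.52, 8.89 and 3.65 in WT replicates 1, 2 and 3, against 1.28, 3.30 and 0.90 for DUS KO, so no DUS KO library reached the lowest WT library. With the shared reads given back to PUS2 the WT ratios were 3.22, 4.04 and 3.65 and the DUS KO ratios 1.25, 3.30 and 0.90, and the groups then overlapped. The ratio was examined after the values were seen and is given without a test.

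DEG1 (YFL001W, chromosome VI, 147131 to 148459, plus strand), whose enzyme modifies the anticodon arm, had 32.1, 8.47 and 12.3 CPM in WT replicates 1, 2 and 3, against 20.4, 20.9 and 26.7 for DUS KO. The DUS KO libraries lay close together and between the WT libraries, which spanned 3.79-fold. Its log2 fold change was 0.34 (standard error 0.47, 95% interval -0.68 to 1.35, adjusted p = 0.909 in edgeR's test). Its sign rested on single WT libraries, since it was 1.09 without WT replicate 1, -0.010 without WT replicate 2 and 0.13 without WT replicate 3.

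PUS7 (YOR243C, chromosome XV, 790211 to 792241, minus strand), the synthase that responds to heat shock, had 52.9, 23.6 and 40.6 CPM in WT replicates 1, 2 and 3, against 39.1, 42.8 and 40.1 for DUS KO. It was the steadiest member in the mutant, within 1.10-fold, and its DUS KO libraries lay inside the range of WT. Its difference between the strains was the smallest of the 9 in size (log2 fold change 0.06, standard error 0.31, 95% interval -0.61 to 0.74, adjusted p = 0.980 in edgeR's test). It became -0.20 without WT replicate 2 and 0.34 without WT replicate 1.

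Of the RluA family, RIB2 (YOL066C, chromosome XV, 202696 to 204471, minus strand) had 32.8, 8.67 and 15.9 CPM in WT replicates 1, 2 and 3, against 28.6, 25.4 and 40.1 for DUS KO. WT replicate 1 lay among the DUS KO libraries, and WT replicates 2 and 3 lay below them. For RIB2 the log2 fold change was 0.68 (standard error 0.45, 95% interval -0.28 to 1.64, adjusted p = 0.736 in edgeR's test). It was 1.31 without WT replicate 1, 0.31 without WT replicate 2 and -0.13 with WT replicate 1 as the only WT library. RIB2 is the only member that is also needed to make riboflavin, the source of the flavin cofactor that dihydrouridine synthases use.

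PUS9 (YDL036C, chromosome IV, 387513 to 388901, minus strand), the mitochondrial relative of RIB2, had 19.7, 23.6 and 18.6 CPM in WT replicates 1, 2 and 3, against 19.2, 14.5 and 2.97 for DUS KO. The first DUS KO library lay inside the WT range, the second below it and the last far below. DUS KO replicate 3 rests on 2 counts, with an exact 95% interval of 0.360 to 10.7 CPM. PUS9 had a log2 fold change of -0.60 (standard error 0.46, 95% interval -1.60 to 0.40, adjusted p = 0.788 in edgeR's test) and -0.29 without that library, but -1.04 without DUS KO replicate 1.

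PUS6 (YGR169C, chromosome VII, 834689 to 835903, minus strand) had 14.7, 43.96 and 10.8 CPM in WT replicates 1, 2 and 3, against 16.2, 16.4 and 17.8 for DUS KO. The DUS KO libraries were level within 1.10-fold, and WT replicate 2 stood 4.08-fold above the lowest WT library, the widest spread among members in WT. For PUS6 the estimate was -0.48 on the log2 scale (standard error 0.49, 95% interval -1.54 to 0.59, adjusted p = 0.861 in edgeR's test), and it was -0.82 without WT replicate 3, -0.72 without WT replicate 1, and turned to 0.39 without WT replicate 2 and to 0.067 on log2(TPM + 1).

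PUS5 (YLR165C, chromosome XII, 494494 to 495258, minus strand), the mitochondrial rRNA synthase and the shortest of the 9 genes, had 24.7, 23.0 and 9.64 CPM in WT replicates 1, 2 and 3, against 13.8, 14.5 and 8.91 for DUS KO. The lowest WT library lay below 2 of the DUS KO libraries. On the log2 scale the estimate for PUS5 was -0.57 (standard error 0.44, 95% interval -1.52 to 0.39, adjusted p = 0.789 in edgeR's test). It was -0.88 without WT replicate 3, -0.35 without WT replicate 1 and -0.91 with WT replicate 1 as the only WT library.

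**Figure D3:**
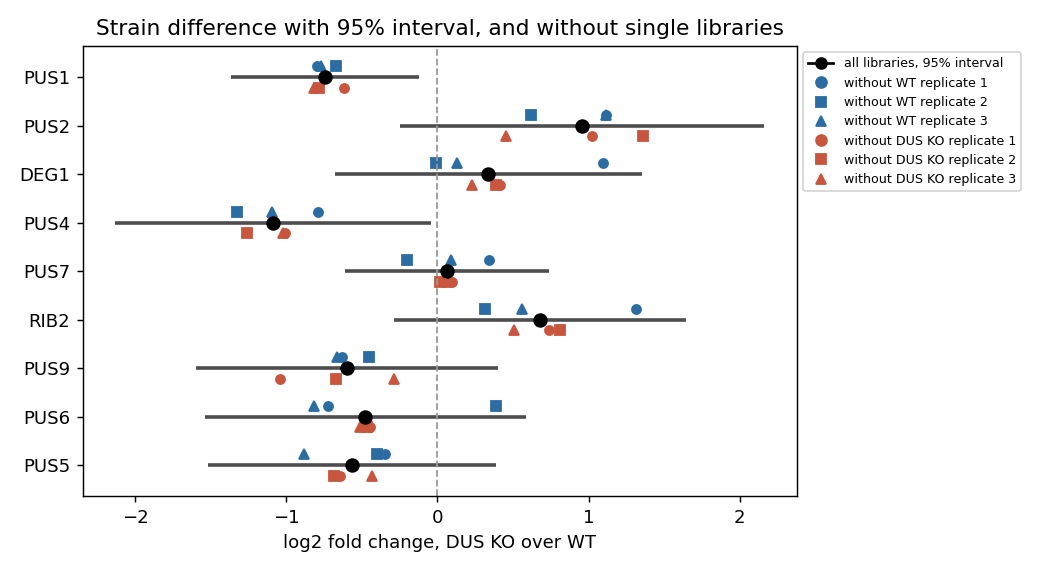
Log2 fold change of each member (DUS KO over WT) from edgeR with its 95% interval in black, and the values after leaving out 1 WT library (blue) or 1 DUS KO library (red). The points of PUS1, PUS4, PUS9 and PUS5 stay below 0 throughout, and those of DEG1, PUS7 and PUS6 cross 0 without WT replicate 2.

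Much of the variation lay between libraries of the same strain. WT replicate 2 was the lowest WT library for 5 members (PUS2, DEG1, PUS4, PUS7 and RIB2) and the highest for 3 (PUS1, PUS9 and PUS6), while WT replicate 1 was the highest for 5. The ratio of the highest to the lowest WT library had a median of 2.24 over the members, beside 1.82 over the 2830 features of similar level (mean 10 to 45 CPM) that had a ratio. In DUS KO the median was 1.41, beside 1.64 over 2831 such features. These are descriptions of the libraries, and whether the members differ from other features in spread was not tested.

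Levels of different genes were compared as TPM, which the authors normalized by effective length and library total. The 9 synthases lay in a narrow range in the middle of the transcriptome. Mean TPM over the 6 libraries was highest for PUS5 (5.89), followed by PUS7 (5.53), PUS1 (5.26), PUS6 (4.54), DEG1 (4.37), RIB2 (4.11), PUS2 (3.52), PUS9 (3.29) and PUS4 (2.49). The highest mean was 2.37 times the lowest, and each pair of neighbours in this order had overlapping ranges over the libraries, so the order is not fixed by these data. PUS7 was the highest in 2 libraries, PUS5, PUS1, PUS6 and PUS2 in 1 each, and PUS2 was the lowest in 3. Of all features tested, 23.9% had a mean TPM between those of PUS4 and PUS5, and the median feature was at 4.78.

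The members of a family were then compared with each other, in 9 pairs, by a two-sided exact sign-flip permutation test of their differences in log2(TPM + 1) over the 6 libraries. The test could hardly call a pair, since the smallest p that 6 libraries allow in this exact test is 0.03125, which for a single pair becomes 0.281 after Benjamini-Hochberg adjustment over the 9 pairs. No unadjusted p fell below 0.05, and the smallest was 0.0625, for PUS9 below PUS5 in 5 of 6 libraries (mean difference -0.73 ± 0.53, SD, n = 6; adjusted p = 0.45 in the exact permutation test). PUS1 exceeded PUS2 in all 3 WT libraries but only in 1 of the DUS KO libraries, with a mean difference of 1.27 ± 0.48 (SD, n = 3) in the former and 0.01 ± 0.76 (SD, n = 3) in the latter. Over both strains the PUS1 to PUS2 difference was 0.64 ± 0.89 (SD, n = 6; exact permutation p = 0.125, adjusted p = 0.45). RIB2 and PUS9 differed by 0.23 ± 1.15 (SD, n = 6; exact permutation p = 0.656, adjusted p = 0.738), with RIB2 higher in 4 of 6 libraries, and by -0.46 ± 0.76 (SD, n = 3) in WT alone. The spreads leave room for differences in either direction, and the pairs are not shown to be equal.

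Grouped by the compartment of their targets, the 3 synthases whose tRNA or rRNA targets are mitochondrial only (PUS2, PUS5 and PUS9) summed to 12.2 ± 2.27 TPM (SD, n = 3) in WT, beside 13.2 ± 2.66 (SD, n = 3) for DUS KO. The 2 enzymes for which the annotation names tRNA in both compartments (PUS4 and PUS6) summed to 7.89 ± 2.36 TPM in WT, beside 6.17 ± 0.217 for DUS KO. The other 4 (PUS1, DEG1, PUS7 and RIB2) summed to 16.98 ± 5.58 TPM, beside 21.6 ± 2.36. The sites given above for Deg1 name no compartment, so its place among these 4 is not settled. The 5 synthases that the annotation connects with mRNA (PUS1, PUS2, DEG1, PUS4 and PUS7) summed to 19.4 ± 5.76 TPM in WT, beside 22.9 ± 3.90 for DUS KO. Each sum differed between the strains by less than the larger spread within a strain, and their direction depends on the WT library: with WT replicate 1 alone the mitochondrial sum was 14.4, that of the other 4 was 22.7 and that of the mRNA group 24.8, each above the DUS KO mean. All 9 together made up 32.4 to 44.4 TPM in WT and 36.1 to 43.9 in DUS KO.

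The genes deleted in the mutant stood near these levels. In WT, DUS4 was at 7.76 ± 1.45 TPM (SD, n = 3), DUS2 at 7.24 ± 2.84, DUS1 at 4.30 ± 2.17 and DUS3, whose counts are not whole, at 2.99 ± 0.933. The synthases in WT ran from a mean of 1.99 TPM (PUS2) to 6.47 TPM (PUS5).

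The core genes of the guide-directed route to pseudouridine stood at higher levels. CBF5, the H/ACA synthase, had a mean of 30.8 TPM, and its lowest library (23.5) lay above the highest value of any stand-alone synthase in any library (8.60). The other core proteins GAR1, NHP2 and NOP10 had means of 335, 205 and 3499 TPM, whereas the assembly factors NAF1 and SHQ1 were at 2.42 and 1.04. Between the strains, 0 of these 6 genes passed edgeR's test or that of DESeq2 (which gave an adjusted p to 4) or limma-voom. At an unadjusted p under 0.05 there were 0 in each. Without WT replicate 3, edgeR had 2 of the 6 at that level, which 688 of 5981 features reached in that fit. With WT replicate 1 as the only WT library their median log2 fold change was -0.36, beside 0.029 over all features. In edgeR, 5 lay below and 1 above 0 with a median log2 fold change of -0.20, beside -0.02 over all features. With total-count scaling 3 lay on each side with a median of -0.0095, beside 0.16 over all features. On log2(TPM + 1) all 6 lay above 0 with a median of 0.13, beside 0.22 over all features. The members of this list ran in edgeR from -0.37 (NAF1) to 0.53 (SHQ1).

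The riboflavin route around RIB2 was uneven in level. RIB3 and RIB4 had means of 199 and 190 TPM, RIB5 of 53.0 and FMN1, which makes the flavin cofactor FMN, of 23.6, whereas RIB1 (6.88), RIB7 (4.93), RIB2 (4.11) and FAD1 (1.02) were low. Of the 7 genes besides RIB2, 0 passed edgeR's test or that of DESeq2 (which gave an adjusted p to 5) or limma-voom, with 0 at an unadjusted p under 0.05 in each. In edgeR, 3 lay above and 4 below 0 with a median log2 fold change of -0.13. On log2(TPM + 1), 5 lay above and 2 below 0 with a median of 0.19, beside 0.22 over all features. There limma called 0 of the 7, with 4 at an unadjusted p under 0.05, a level that 774 of 5884 features reached. The edgeR median was 0.057 with total-count scaling, beside 0.16 over all features. It was 0.053 with WT replicate 1 as the only WT library, beside 0.029 over all features. Both had 4 genes above 0, and the median ran from -0.20 to -0.047 with single libraries left out. The highest in edgeR was RIB7 (0.44, adjusted p = 0.862) and the lowest FAD1 (-1.54, standard error 1.01, adjusted p = 0.731), whose counts were 25, 34 and 16 in the WT replicates, against 17, 5 and 0 for DUS KO. The strains did not overlap for RIB5, which was higher in DUS KO (as 7.83% of all features were), or for FAD1, which was lower (7.68%).

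**Figure D4:**
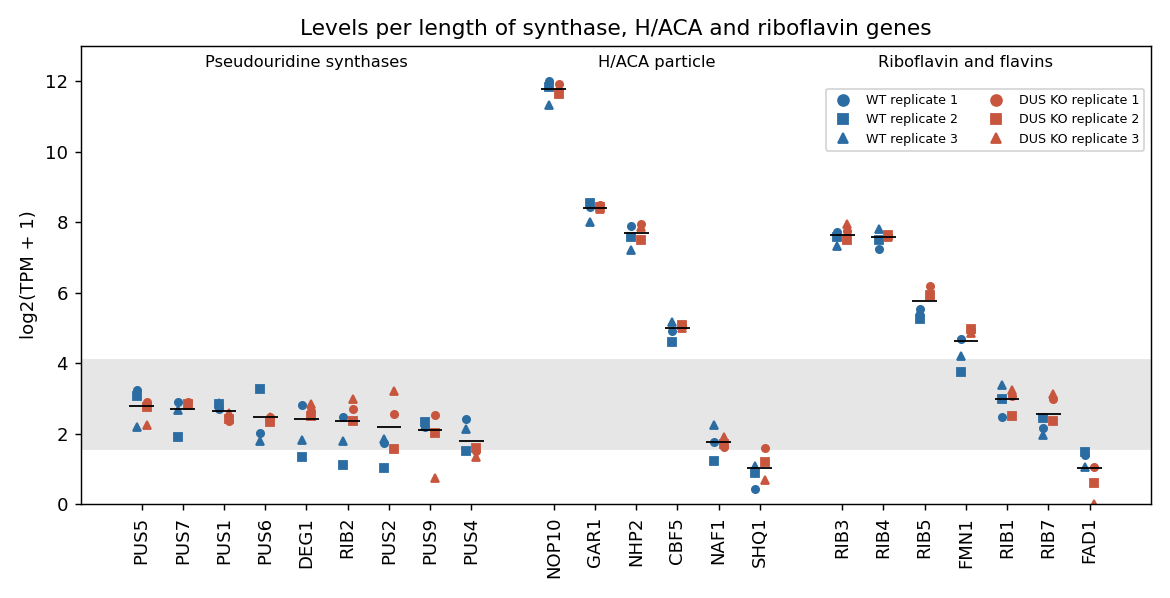
Level per length, as log2(TPM + 1), of the 9 synthases, 6 H/ACA genes and 7 riboflavin and flavin genes in each library (WT blue, DUS KO red, mean as a line), with the middle 50% of all tested features in grey. The 9 synthase means all lie within the grey band, and NOP10, GAR1, NHP2 and CBF5 lie above it.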

How the data were processed

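The tables of the 6 RNA-seq libraries were used. Samples of D-seq, 6 in all, were not analysed here. The study's methods describe trimming with bbduk, collapse of duplicates on the UMI and alignment to sacCer3 with bbmap, and which program quantified the features was not given in the sources used here. The deposited estimated counts are not normalized, and the deposited TPM values were normalized by the authors for effective length and library total. Features are spliced coding sequences without strand labels. Counts were rounded, filtered with filterByExpr (5884 of 6612 features kept), scaled by TMM and tested with edgeR 4.0.16 (quasi-likelihood, robust, no replicate block) in R 4.3.3, with Benjamini-Hochberg adjustment over all features and a threshold of 0.05. The standard error is the size of the log2 fold change over the square root of F. The biological coefficient of variation was 37.5%. Totals ran from 656162 to 5652837 counts. DESeq2 1.42.0 and limma 3.58.1 served as alternatives. Scripts were tested on simulated data. The text names all 9 members and, of the H/ACA and riboflavin lists, called genes and those of highest and lowest log2 fold change; levels of other list genes, RIB5 and the PUS1 to PUS2 ratio were added after values were seen. Members and lists were chosen with earlier results of these data known. Sequences come from the RefSeq R64 genome, matched by locus tag for 9 of 9 members; no protein sequences were used.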

Additional observations from a re-analysis of the deposited data

How the results depend on the processing

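The count of 0 members called held in all 18 alternatives that gave a value, though DESeq2 gave an adjusted p to 3 of the 9 only and the fit with WT replicate 1 alone takes its spread from DUS KO. The count of 0 family pairs, in all 10, was nearly set by the design. Features with a mean TPM of at least 10 hold no member, so that alternative gave no value. Leaving out single libraries gave 0 to 0 calls in both, but 5 libraries allow no p below 0.0625 and the WT libraries alone none below 0.25, so the pair test then says nothing. PUS1, PUS2, PUS4, PUS9 and PUS5 kept their sign in every alternative that gave a value. Changes of sign were never called, and their cause was not tested. PUS6 turned to 0.067 on log2(TPM + 1), 0.12 on log2(TPM + 0.1) and 0.18 with WT replicate 1 as the only WT library, which took DEG1, PUS7 and RIB2 to -0.55, -0.38 and -0.13. Leaving out single libraries gave -0.82 to 0.39 for PUS6, -0.010 to 1.09 for DEG1 and -0.20 to 0.34 for PUS7, with the change of sign in each case without WT replicate 2. The RIB2 to PUS9 difference turned to -0.46 in WT libraries alone and ran from -0.17 (without DUS KO replicate 3) to 0.52 with single libraries left out, and the RIB2 to PUS6 difference from -0.29 to 0.25 (without WT replicate 2). The median of all features moved from -0.02 with TMM to 0.16 with total counts, 0.22 on log2(TPM + 1) and 0.29 on log2(TPM + 0.1), and PUS1 and PUS4 stayed below 0 without correction for that shift. A minimum of 10 counts in every library took out PUS4, PUS9 and PUS5. Same-numbered WT and DUS KO libraries deviated from their strain means with correlations of 0.02, -0.04 and -0.07, which gives no sign of pairing, and a replicate block called 0 of the 9 members, with PUS1 at -0.74 (adjusted p = 0.683 in edgeR's test, with 0.321 to 0.9746 over the alternatives). Sums with YGL063C-A and WT replicate 1 alone were chosen after the data were seen. DUS KO replicate 3, with 2 to 27 counts per member, limits the precision of its own values.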
